A study of Mus musculus with 50 samples.

Results

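Mouse developing oligodendrocytes were kept in interferon gamma (IFN-γ) for 8, 24 or 48 h, and the 48 h cultures were compared with the 8 h cultures to see which maturation genes still rose under the cytokine and which responses built up or faded. These 3 times take in 15 of the 50 RNA-sequencing libraries of the series, 5 per time, of which 3 were Nrf2 -/- (homozygous null for the transcription factor NRF2) and 2 were wild type (WT). The main contrast was IFN-γ 48 h against IFN-γ 8 h with genotype as a covariate, and 24 h served as the midpoint. In time, 24 h lies nearer to 8 h than to 48 h, so the intervals on either side are unequal. Untreated cultures sampled at 8, 24 and 48 h, again 3 Nrf2 -/- and 2 WT libraries per time, gave the change over the same hours without the cytokine. All cells, treated or not, were oligodendrocyte precursors immunopanned from cortices of 6 day old C57BL/6 pups, expanded over 2 passages and moved to differentiation for 12 to 14 h before plates were assigned to 200 U/ml IFN-γ or left untreated. The labels conflict on the source tissue, which the growth protocol gives as cortices and the tissue field as whole brain, and the series' design text names 4 Nrf2 mutant replicates per time, of which 3 were analysed here. Within the IFN-γ libraries the time in cytokine and the time in differentiation ran together, so their parts cannot be told apart there. The labels do not say whether libraries of a group came from separate cultures or animals. Each p-value therefore measures the spread between libraries, estimated over all 50 of the series, which may be technical. Those 50 also hold cultures sampled at 1 h and cultures treated with thapsigargin for 1 or 8 h. Such libraries entered the shared model but were not compared here.

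Oligodendrocytes wrap axons in myelin. Precursors that carry Pdgfra and Cspg4 leave the cell cycle, pass through a committed stage marked by Enpp6, Bcas1 and Gpr17, and then fill their processes with myelin proteins such as MBP and with galactolipids and cholesterol. IFN-γ is the T-cell and natural killer cell cytokine of inflammatory demyelination. It acts through its receptor, JAK1 and JAK2 and STAT transcription factors, which turn on GTPases, antigen presentation and the brakes on the signal, the SOCS proteins.

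Expression is given as CPM, the count of a gene scaled to the effective size of its library. A gene was called when edgeR's quasi-likelihood test gave a Benjamini-Hochberg adjusted p below 0.05 over the 16460 genes tested, and log2 folds are given with their standard error (SE). The 15 IFN-γ libraries held 32252272 to 54657205 counts, with a median of 36534834. Nfe2l2, the gene of NRF2, lay between 15.8 and 38.3 CPM in the WT and between 0.201 and 0.594 CPM in the Nrf2 -/- libraries with IFN-γ. Of those Nrf2 -/- libraries, 1 at 8 h carries WT in its genotype field but Nrf2 -/- in its title, and was grouped by title. The lineage factors Olig2 and Sox10 averaged 345 ± 20 and 695 ± 124 CPM at 48 h (SD, n = 5), as fits the labelled cell type, whereas Opalin, a marker of mature cells, reached at most 5.8 CPM in the IFN-γ libraries. Replicate libraries of 1 time correlated with r between 0.9867 and 0.9937 on log2 CPM. Among the untreated libraries, 1 Nrf2 -/- library at 24 h held 40.6 CPM of Gbp2, against 0 to 0.159 CPM in the other 4, which is 0.595% of the IFN-γ 24 h mean; it did not enter the 48 h against 8 h contrast except through the shared estimate of spread.

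From 8 to 48 h of IFN-γ, 4344 genes rose and 4404 fell, which is 26.4% and 26.8% of the genes tested; 1210 rose and 735 fell by at least 2-fold (7.35% and 4.47%). Every 48 h library lay above every 8 h library for 3053 genes (18.5%) and below every one for 2945 (17.9%). More genes were called for the second interval, which is the longer, than for the first: 3733 rose and 3401 fell at 48 h against 24 h, and 2499 rose and 2647 fell at 24 h against 8 h. Untreated cultures changed more genes over the same hours, 5272 higher and 5274 lower. Of the genes that rose with IFN-γ, 3096 also rose untreated, which is 71.3% of the IFN-γ list and 58.7% of the untreated list, while 2971 fell in both, 67.5% and 56.3% of the lists. Opposite calls were made for 352 genes higher with IFN-γ and lower untreated and for 393 lower with IFN-γ and higher untreated. The change with IFN-γ differed from the untreated change for 6703 genes, 3424 with a larger and 3279 with a smaller log2 value under IFN-γ.

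**Figure D1:**
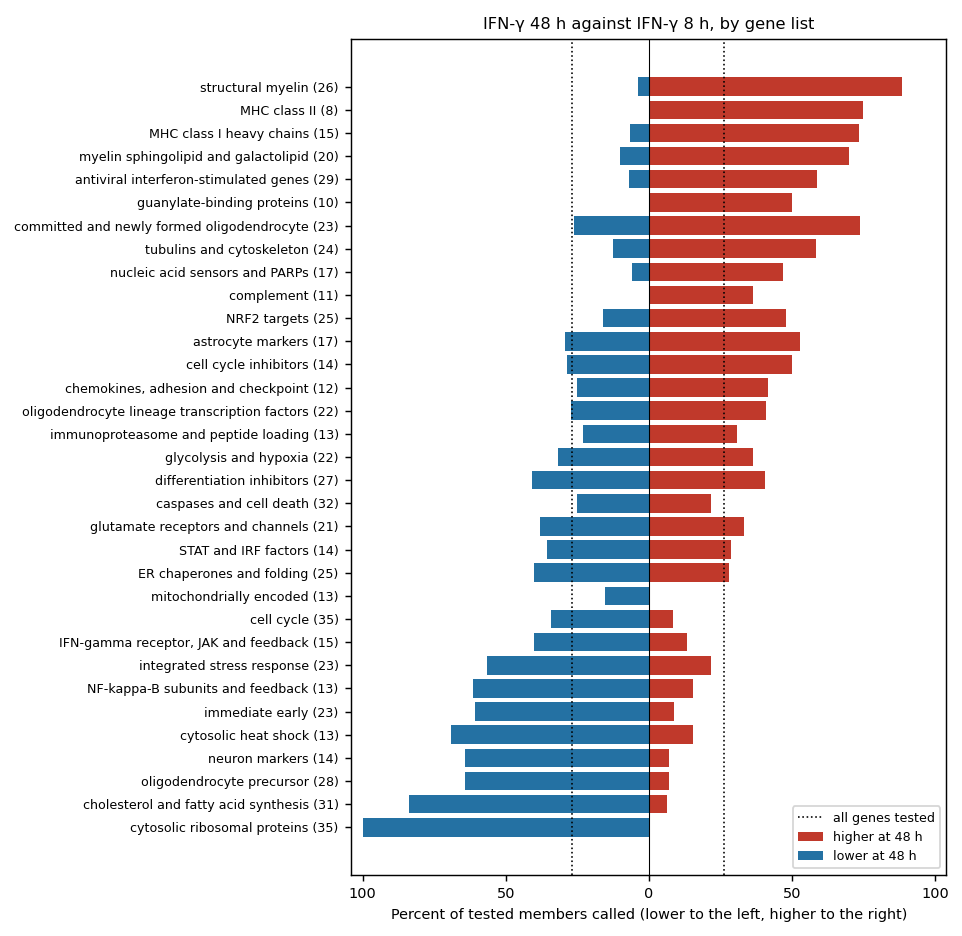
Percent of the tested members of each gene list that were called higher (red, to the right) or lower (blue, to the left) at IFN-γ 48 h against IFN-γ 8 h, with the number of tested members in brackets. The dotted lines mark the shares over all 16460 genes, 26.4% higher and 26.8% lower; 23 of 26 structural myelin genes rose and all 35 ribosomal protein genes fell.

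The genes of the myelin sheath rose under IFN-γ. In bulk RNA, more cells of a type and more RNA per cell cannot be told apart. Of 26 structural myelin genes, 23 were higher and 1 was lower at 48 h than at 8 h, against 26.4% and 26.8% of all genes, with a median log2 fold of 2.09 against -0.018 over all genes. Most of that rise came after 24 h: 18 genes rose at 24 h against 8 h, where 15.2% of all genes did, with a median of 0.68, and 23 rose at 48 h against 24 h, where 22.7% did, with a median of 1.27. The interval after 24 h is also the longer, and rates per hour were not compared. Against the mean of 8 and 48 h, the 24 h values were lower for 15 of the 26, where 13.8% of all genes were. As 24 h is nearer in time to 8 h, a gene with a steady log2 rise would also lie below that mean. This count therefore does not tell a late rise from a steady one.

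Mbp, the basic protein that compacts the sheath, had 127, 157, 159, 177 and 213 CPM at 8 h, 291, 365, 375, 452 and 531 CPM at 24 h and 2051, 2295, 2354, 2390 and 2882 CPM at 48 h. None of the 3 times overlapped, and the log2 fold, 48 h over 8 h, was 3.85 ± 0.12 (edgeR adjusted p = 1.2e-28), with 89.4% of the difference in mean CPM arising after 24 h. Mobp, another basic myelin protein, had 4.39, 5.23, 5.28, 6.01 and 6.03 CPM at 8 h, 16.7, 17, 21.7, 25.1 and 27.6 CPM at 24 h and 215, 231, 247, 285 and 410 CPM at 48 h. It rose with a log2 fold of 5.68 ± 0.22 (edgeR adjusted p = 1e-24). Mag, the adhesion protein of the innermost myelin wrap, rose with a log2 fold of 2.51 ± 0.11, and Tppp, a tubulin-binding protein of oligodendrocytes, with one of 4.83 ± 0.12.

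Mog, the protein of the outermost myelin layer, followed another course. It had 6.63, 7.31, 8.08, 8.48 and 9.03 CPM at 8 h, 5.91, 7.04, 8.15, 8.98 and 9.37 CPM at 24 h and 32.1, 37.2, 37.8, 38.9 and 45.4 CPM at 48 h. The 8 and 24 h libraries overlapped and all 48 h libraries stood above both; the log2 fold was -0.01 ± 0.13 at 24 h over 8 h (edgeR adjusted p = 0.97) and 2.29 ± 0.12 at 48 h over 24 h (edgeR adjusted p = 4.75e-20). Opalin was the member that was lower, with 2.72, 3.68, 3.83, 4.16 and 4.78 CPM at 48 h and 4.06, 4.47, 4.65, 4.73 and 5.8 CPM at 8 h. These ranges overlapped, the log2 fold was -0.30 ± 0.12 (edgeR adjusted p = 0.0311), and the adjusted p reached 0.223 without WT 48 h replicate 2, 0.104 without WT 8 h replicate 1, 0.072 without WT 48 h replicate 1 and 0.0574 without Nrf2 -/- 48 h replicate 1.

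Untreated cultures raised many of these genes further. The log2 change was lower with IFN-γ than untreated for 14 of the 26 structural myelin genes (19.9% of all genes). It was higher for 6 (Cnp, Cntn2, Mog, Mpzl1, Pllp and Tspan2), against 20.8% of all genes. Of the 6, Cntn2 fell untreated and was not called with IFN-γ. At 48 h, 17 of the 26 were still lower and 2 were higher with IFN-γ than untreated, against 28.2% and 27.3% of all genes. Mean IFN-γ levels at 48 h came to 34% of the untreated level for Mbp and 26.6% for Mobp. They were 8.14% for Ermn and 9.49% for Mal, which encode a late cytoskeletal and a late raft protein of myelin. Ermn had 3.03, 3.57, 4.27, 7.29 and 8.51 CPM with IFN-γ at 48 h and a mean of 65.5 ± 21.3 CPM untreated (SD, n = 5), and its change with IFN-γ was below the untreated change, at a log2 difference of -3.49 ± 0.34 (edgeR adjusted p = 3.26e-12). Mog differed in the other direction, by 1.02 ± 0.17 (edgeR adjusted p = 2.89e-06). It was nevertheless called lower with IFN-γ than untreated both at 8 h and at 48 h. Tspan2, a tetraspanin of early myelination, ended above the untreated level, with a mean of 302 ± 53.1 CPM with IFN-γ and 231 ± 23.7 CPM untreated at 48 h (SD, n = 5 each; log2 fold 0.39 ± 0.075, edgeR adjusted p = 1.92e-05).

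**Figure D2:**
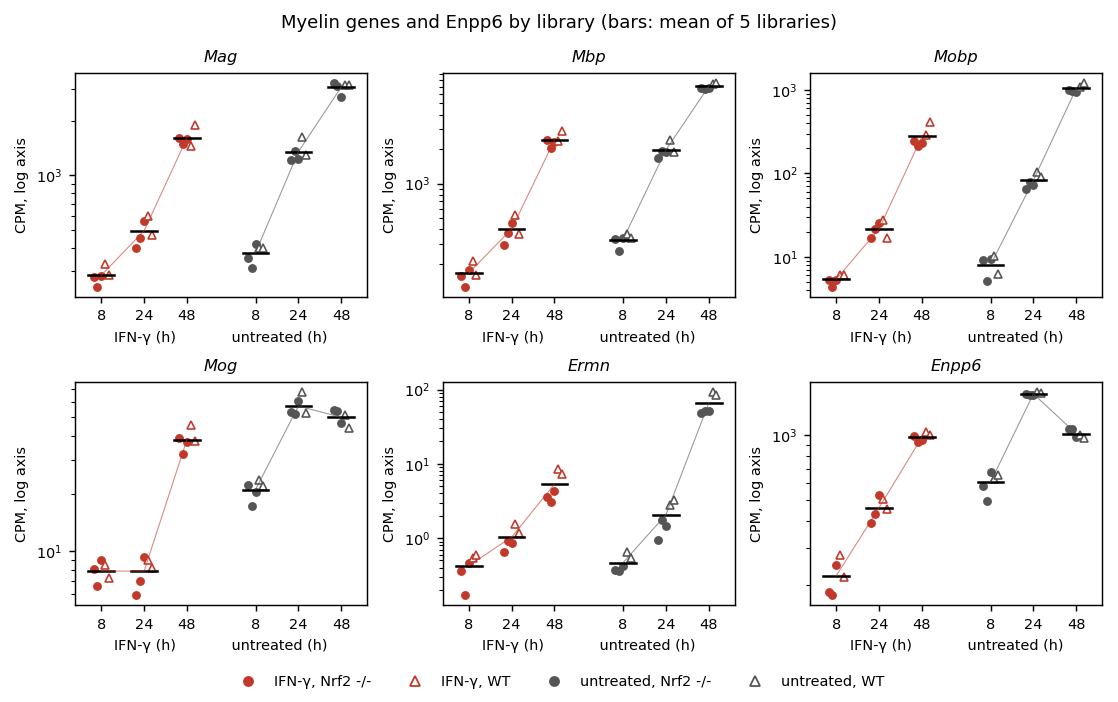
CPM on a log axis for 5 structural myelin genes and Enpp6, with 1 symbol per library, IFN-γ libraries (red) left of untreated libraries (grey) at 8, 24 and 48 h, circles for Nrf2 -/- and triangles for WT, and bars at the mean of 5 libraries joined by thin lines. The steepest drawn step under IFN-γ lies between 24 and 48 h, the longer interval, for Mag, Mbp, Mobp, Mog and Ermn. Ermn reached a mean of 5.33 CPM with IFN-γ and 65.5 CPM untreated at 48 h.

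Lipid genes split. Of 20 genes of myelin sphingolipid and galactolipid synthesis, 14 rose and 2 fell from 8 to 48 h of IFN-γ. Over all genes 26.4% rose and 26.8% fell, and the median log2 fold of the 20 was 0.76. Ugt8a, the enzyme that makes galactosylceramide, had 699, 722, 799, 859 and 899 CPM at 8 h, 943, 1087, 1120, 1146 and 1258 CPM at 24 h and 2138, 2232, 2262, 2488 and 2611 CPM at 48 h. No times overlapped, and its log2 fold was 1.56 ± 0.069 (edgeR adjusted p = 4.81e-25). Gal3st1, which adds the sulfate to make sulfatide, rose by 0.73 ± 0.081 and reached 128 ± 6.44 CPM with IFN-γ against 130 ± 7.07 CPM untreated at 48 h (SD, n = 5 each). Genes of cholesterol and fatty acid synthesis went the other way: 26 of 31 fell and 2 rose at 48 h against 8 h, with a median of -0.57. Their lowest point was at 24 h, when 29 were below 8 h (16.1% of all genes), with a median of -0.87; 24 of the 31 then rose between 24 and 48 h (22.7% of all genes).

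Hmgcs1, an early enzyme of the mevalonate pathway, had 5144, 5173, 5802, 5860 and 6085 CPM at 8 h, 2151, 2169, 2285, 2477 and 2833 CPM at 24 h and 3216, 3241, 3393, 3502 and 3538 CPM at 48 h. The 24 h libraries lay below all others and the 48 h libraries below all of 8 h. The 24 h value was below the mean of 8 and 48 h by a log2 difference of -0.87 ± 0.07 (edgeR adjusted p = 5.89e-14). Fdps, the farnesyl diphosphate synthase of the same pathway, had the same order, and its 24 h value was below that mean by a log2 difference of -0.83 ± 0.064 (edgeR adjusted p = 2.57e-14). Untreated cultures were also lower at 48 h than at 8 h for 25 of the 31 genes and higher for 5 (32.0% of all genes in each direction), with a median of -0.71. Untreated Hmgcs1, however, was highest at 24 h, with means of 6165, 8333 and 4007 CPM at 8, 24 and 48 h. All 31 genes were lower with IFN-γ than untreated at 24 h, where 28.6% of all genes were, against 24 at 8 h (20.3%) and 21 at 48 h (28.2%). Srebf1, a transcription factor of lipid synthesis, was 1 of the 2 that rose, with a log2 fold of 0.44 ± 0.064.

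**Figure D3:**
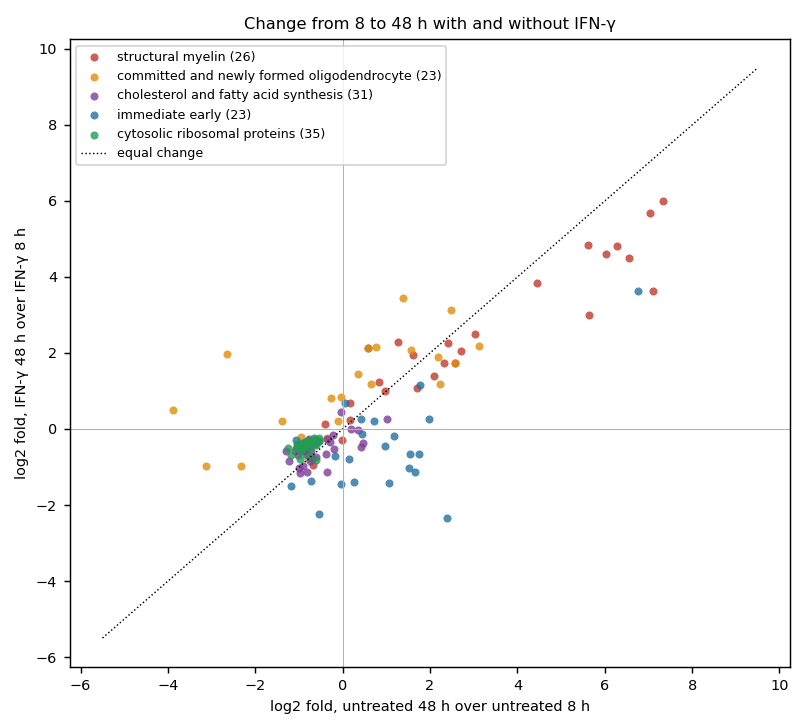
Log2 fold from 8 to 48 h with IFN-γ (vertical axis) against the log2 fold from 8 to 48 h untreated (horizontal axis) for the tested members of 5 gene lists, 1 point per gene; the 2 axes share no library, and the dotted line marks equal change. Structural myelin genes with the largest folds lie below the line, several committed-stage genes lie far above it with a fall untreated and a rise with IFN-γ, and many immediate early genes lie below 0 on the IFN-γ axis.

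Most genes of the committed and newly formed stage had a higher log2 change with IFN-γ than without it. Of 23 tested, of 25 listed, 17 rose and 6 fell from 8 to 48 h of IFN-γ (26.4% and 26.8% of all genes). Their median log2 fold was 1.18. Untreated cultures raised 10 and lowered 10 (32.0% of all genes in each direction). The change with IFN-γ was higher on the log2 scale than the untreated change for 17 and lower for 4 (20.8% and 19.9% of all genes). The 17 include Bcas1, Ctps, Lims2 and Sema5b, which fell with IFN-γ and untreated, and the 4 were Frmd4a, Nfasc, Pik3r3 and Rras2, which rose in both. IFN-γ libraries were lower than untreated for 20 of the 23 at 8 h and at 24 h (20.3% and 28.6% of all genes). At 48 h they were lower for 5 and higher for 8, which is not far from the shares of all genes (28.2% and 27.3%). Enpp6, a choline phosphodiesterase that marks newly forming oligodendrocytes, had 180, 186, 218, 249 and 276 CPM at 8 h, 389, 429, 454, 507 and 528 CPM at 24 h and 932, 952, 990, 1004 and 1033 CPM at 48 h. The times did not overlap, and the log2 fold was 2.15 ± 0.13 (edgeR adjusted p = 6.89e-19). Against untreated cultures its log2 difference was -1.46 ± 0.12 at 8 h and -0.06 ± 0.12 at 48 h, with edgeR adjusted p of 1.24e-13 and 0.69. Itpr2, an intracellular calcium channel, rose by 1.45 ± 0.11 and Kif19a, a kinesin, by 3.45 ± 0.11.

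Bmp4, a secreted growth factor, and Neu4, a sialidase, had the largest positive differences between the change with IFN-γ and the untreated change. Bmp4 had 6.84, 8.13, 8.83, 9.02 and 9.34 CPM at 8 h, 25.4, 28.4, 29, 33 and 38.6 CPM at 24 h and 26.5, 30.9, 33, 35.4 and 38.4 CPM at 48 h of IFN-γ. The 24 and 48 h libraries overlapped, and all lay above the 8 h libraries. Untreated means were 54.4, 42.8 and 8.72 CPM at 8, 24 and 48 h, so that the untreated level was above the IFN-γ level at 8 h and below it at 48 h. The 2 changes differed by 4.61 ± 0.18 on the log2 scale (edgeR adjusted p = 4.99e-25). For Neu4, IFN-γ means were 37.2 ± 2.33, 44.9 ± 2.41 and 52.4 ± 4.05 CPM (SD, n = 5) and untreated means 103, 28.8 and 6.95 CPM at 8, 24 and 48 h, a difference of 4.38 ± 0.12 (edgeR adjusted p = 7.35e-32). Gpr17, a receptor of committed precursors, was higher at 48 h by 0.22 ± 0.081 (edgeR adjusted p = 0.0218), and Bcas1 was lower, with a log2 fold of -0.22 ± 0.081 (edgeR adjusted p = 0.0203). Both calls were lost on leaving out 1 library, with adjusted p of 0.178 for Gpr17 without Nrf2 -/- 48 h replicate 2, 0.0717 without its replicate 1, 0.0551 without Nrf2 -/- 8 h replicate 1 and 0.0629 without WT 8 h replicate 1. For Bcas1 they were 0.23 without WT 48 h replicate 1, 0.0576 without Nrf2 -/- 8 h replicate 3 and 0.0505 without WT 8 h replicate 1.

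Precursor genes declined under IFN-γ: 18 of 28 fell and 2 rose (Luzp2 and Susd5), against 26.8% and 26.4% of all genes. Their median log2 fold was -0.43. Pdgfra, the receptor for the precursor mitogen PDGF, had 500, 546, 593, 630 and 711 CPM at 8 h, 339, 364, 428, 436 and 518 CPM at 24 h and 344, 364, 366, 377 and 406 CPM at 48 h. The 48 h libraries were all below the 8 h libraries, 24 h overlapped both, and the log2 fold was -0.68 ± 0.097 (edgeR adjusted p = 6.2e-08). The log2 change was higher with IFN-γ than untreated for 12 of the 28 and lower for 5, against 20.8% and 19.9% of all genes. Cspg4, which encodes the NG2 proteoglycan, had a log2 fold of -0.92 ± 0.12 with IFN-γ and of -1.65 ± 0.12 untreated, a difference of 0.72 ± 0.17 (edgeR adjusted p = 0.000446).

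Of 22 lineage transcription factors, 9 rose and 6 fell, where 26.4% and 26.8% of all genes did. Myrf, the regulator that turns on myelin genes, had 201, 207, 289, 305 and 332 CPM at 48 h and 125, 126, 136, 141 and 142 CPM at 8 h. These did not overlap, and the log2 fold was 1.00 ± 0.18 (edgeR adjusted p = 1.21e-05), against 1.01 ± 0.18 untreated. St18, a zinc-finger factor, had the largest fold of the list, 3.45 ± 0.12, and Olig2 was lower, with a log2 fold of -0.55 ± 0.066. Sox10 was at 0.04 ± 0.085 (edgeR adjusted p = 0.687); without WT 48 h replicate 1, whose Sox10 was lowest, it was 0.17 with an adjusted p of 0.0448. Of 27 tested genes that hold differentiation back, 11 rose and 11 fell with IFN-γ, and 16 rose and 7 fell untreated (32.0% of all genes in each direction). The change was lower on the log2 scale with IFN-γ for 12 and higher for 3 (19.9% and 20.8% of all genes). Id2 and Id4, inhibitors of basic helix-loop-helix factors, reached 30.8 ± 1.75 and 2.4 ± 0.334 CPM at 48 h of IFN-γ, against 51.9 ± 8.45 and 14.2 ± 1.51 CPM untreated (SD, n = 5 each).

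Cell cycle genes peaked at the midpoint. Of 35, 25 rose and 1 fell at 24 h against 8 h (15.2% and 16.1% of all genes), and 34 fell at 48 h against 24 h (20.7%). At 48 h against 8 h, 3 were higher and 12 lower (26.4% and 26.8% of all genes). With the compared libraries alone 10 were higher. The 24 h level was above the mean of 8 and 48 h for 32 of the 35, against 10.2% of all genes. Top2a, the topoisomerase of dividing cells, had 409, 424, 473, 514 and 539 CPM at 8 h, 710, 836, 845, 916 and 941 CPM at 24 h and 461, 507, 521, 530 and 536 CPM at 48 h. All 24 h libraries were above all others, whereas 8 and 48 h overlapped. The log2 difference of 24 h from the mean of 8 and 48 h was 0.79 ± 0.096 (edgeR adjusted p = 1.63e-08), and for Ube2c, which drives exit from mitosis, it was 1.44 ± 0.14 (edgeR adjusted p = 3.65e-11). Untreated Top2a means were 334, 225 and 224 CPM. From 8 to 48 h untreated, 29 of the 35 genes fell and 2 rose (32.0% of all genes in each direction). At 48 h, 32 of the 35 were higher with IFN-γ than untreated, and all 35 were higher at 24 h (27.3% and 27.5% of all genes). The 12 that were lower at 48 h than at 8 h of IFN-γ were Ccnd1, cyclin E and CDK2 genes, E2f1, Chaf1b, Rrm2 and the replication licensing genes Mcm2 to Mcm6. Ccnd1, the G1 cyclin, had a log2 fold of -0.68 ± 0.091 with IFN-γ and of 0.52 ± 0.092 untreated (difference -1.20 ± 0.13, edgeR adjusted p = 1.59e-10). Cdkn1a, the p21 inhibitor, reached 31.4 ± 2.18 CPM with IFN-γ and 77.1 ± 9 CPM untreated at 48 h (SD, n = 5 each).

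**Figure D4:**
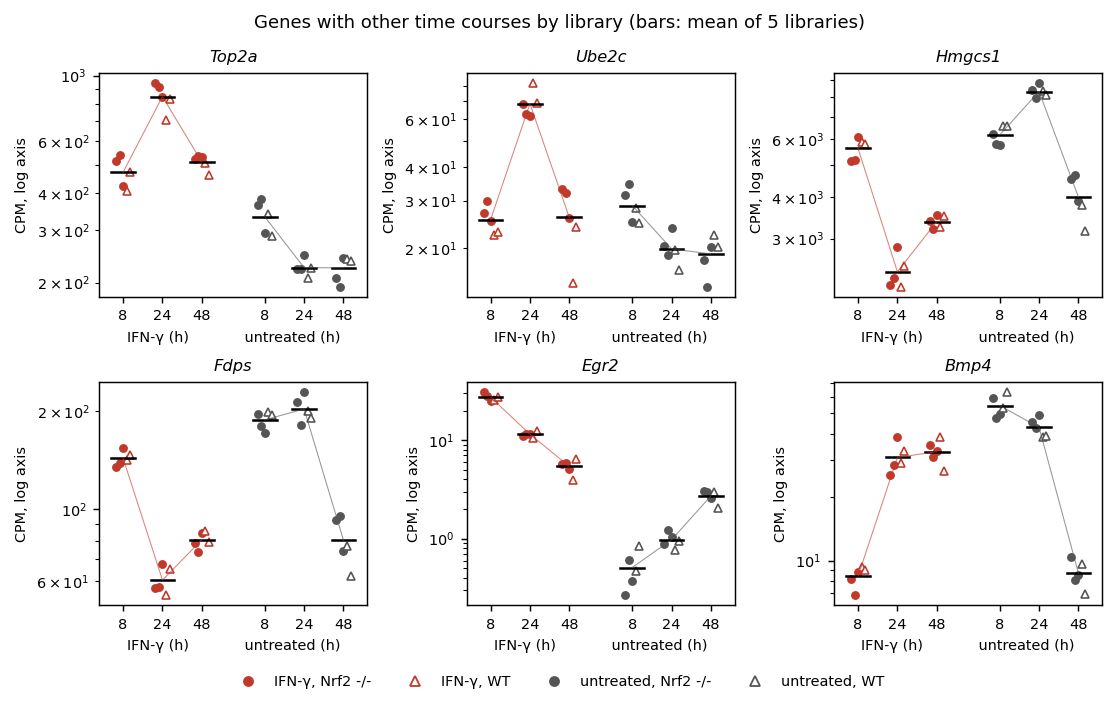
CPM on a log axis for 6 genes with other time courses, drawn as 1 symbol per library with bars at the mean of 5 libraries joined by thin lines, IFN-γ (red) left of untreated (grey), circles for Nrf2 -/- and triangles for WT. With IFN-γ, Top2a and Ube2c were highest and Hmgcs1 and Fdps lowest at 24 h, Egr2 was lower at each later time, and Bmp4 was higher at 24 and 48 h than at 8 h.

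The IFN-γ response itself moved unevenly. Of 140 tested genes in 10 lists of IFN-γ response genes, 62 were higher and 21 lower at 48 h than at 8 h. Over all genes 26.4% were higher and 26.8% lower, and the median log2 fold of the 140 was 0.30. At 48 h, 121 were above and 3 below the untreated level (27.3% and 28.2% of all genes). At 8 h, 122 were above and 5 below it (19.4% and 20.3% of all genes). From 8 to 48 h, 4 of 14 STAT and IRF factors rose and 5 fell, not far from the shares of all genes. Of 17 nucleic acid sensors and PARPs, 8 rose and 1 fell, and of 12 chemokine, adhesion and checkpoint genes, 5 rose and 3 fell. Reads of the MHC, guanylate-binding protein and immunity-related GTPase families may be shared between near-identical copies, so values of single members there are uncertain.

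MHC class I genes rose, and genes of peptide loading were called near the shares of all genes in both directions. Of 15 tested genes of the MHC class I list, 11 rose and 1 fell (26.4% and 26.8% of all genes). Their median log2 fold was 2.39, and 11 had already risen at 24 h (15.2% of all genes). H2-K1, a classical class I heavy chain, had 192, 219, 228, 248 and 249 CPM at 8 h, 1631, 1847, 1906, 1958 and 2133 CPM at 24 h and 2298, 2442, 2442, 2605 and 2765 CPM at 48 h. No times overlapped and 27% of the rise in mean CPM came after 24 h; the log2 fold was 3.47 ± 0.081 (edgeR adjusted p = 8.88e-36). Untreated libraries averaged 7.41 CPM at 8 h and 8.8 CPM at 48 h. B2m, the light chain that class I molecules need, had 2137, 2267, 2312, 2314 and 2372 CPM at 48 h and 707, 737, 790, 815 and 839 CPM at 8 h, which did not overlap, with a log2 fold of 1.55 ± 0.09. Of 13 immunoproteasome and peptide loading genes, 4 rose (Psmb8, Psmb9, Tap1 and Tapbp), 3 fell (Calr, Erap1 and Psme2) and 6 were not called. These counts were near the shares of all genes, and the median log2 fold was 0.08. Tap1, a subunit of the peptide transporter, rose by 0.42 ± 0.11 (edgeR adjusted p = 0.00146), and Nlrc5, the class I transactivator, was at 658 ± 120 CPM at 48 h and 714 ± 30.3 CPM at 8 h (SD, n = 5 each; edgeR adjusted p = 0.589).

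MHC class II genes, normally the mark of professional antigen-presenting cells, rose at low levels. Of 8 tested, of 13 listed, 6 were higher at 48 h (26.4% of all genes), with a median log2 fold of 1.95. H2-Aa had 1.36, 1.53, 1.78, 2.02 and 2.05 CPM at 8 h, 7.65, 9.23, 10.5, 10.7 and 11.4 CPM at 24 h and 11.3, 11.4, 12.4, 12.4 and 13 CPM at 48 h, and all later libraries stood above the 8 h libraries. Its log2 fold was 2.79 ± 0.17 (edgeR adjusted p = 3.93e-19), that of H2-Eb1 was 2.65 ± 0.13 and that of H2-Ab1 was 1.94 ± 0.14. Ciita, the master regulator of class II genes, was not called, at 16.8 ± 1.18 CPM at 48 h and 16.9 ± 2.03 CPM at 8 h (SD, n = 5 each), with a log2 fold of -0.02 ± 0.15 (edgeR adjusted p = 0.925). Markers of microglia and macrophages, cells that carry class II, were tested for 4 of 19 genes, with summed levels of 28.7 to 37.5 CPM at 48 h and 23.5 to 26.9 CPM at 8 h; their part in these values was not tested.

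Promoters are shown for genes of 3 outcomes in the main fit, so that their motifs can be set beside the values: B2m and H2-Aa, which rose, Igtp, which was not called, and Socs3, which fell. Igtp was lower in every 48 h library than in every 8 h library, and was called lower when only the compared libraries were fitted. Each line gives the 250 bases before the RefSeq start (build GRCm38.p6), 5′ to 3′ on the gene's strand, with the searched motifs in capitals: GAS (TTCNNNGAA), a STAT site; ISRE (GAAA, any 2 bases, then GAAA), the site of IRF and STAT complexes; and the inverted CCAAT box (GATTGG), part of MHC promoters. Motifs were sought on both strands.
B2m, chr2:122147437-122147686, plus strand: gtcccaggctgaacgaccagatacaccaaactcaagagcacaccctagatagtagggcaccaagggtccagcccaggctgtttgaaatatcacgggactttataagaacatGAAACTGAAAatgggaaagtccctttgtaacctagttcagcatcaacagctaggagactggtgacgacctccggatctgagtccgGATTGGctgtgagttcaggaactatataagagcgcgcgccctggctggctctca
H2-Aa, chr17:34287824-34288073, minus strand: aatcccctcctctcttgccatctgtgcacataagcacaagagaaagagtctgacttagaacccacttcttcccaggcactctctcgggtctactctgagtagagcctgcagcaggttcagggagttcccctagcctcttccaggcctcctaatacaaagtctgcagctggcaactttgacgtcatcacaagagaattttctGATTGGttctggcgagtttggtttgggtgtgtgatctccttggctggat
Igtp, chr11:58199306-58199555, plus strand: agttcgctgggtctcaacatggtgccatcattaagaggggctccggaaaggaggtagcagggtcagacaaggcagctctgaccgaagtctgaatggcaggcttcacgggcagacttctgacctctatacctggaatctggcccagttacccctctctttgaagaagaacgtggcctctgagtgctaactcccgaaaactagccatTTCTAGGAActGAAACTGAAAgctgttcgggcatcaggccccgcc
Socs3, chr11:117969367-117969616, minus strand: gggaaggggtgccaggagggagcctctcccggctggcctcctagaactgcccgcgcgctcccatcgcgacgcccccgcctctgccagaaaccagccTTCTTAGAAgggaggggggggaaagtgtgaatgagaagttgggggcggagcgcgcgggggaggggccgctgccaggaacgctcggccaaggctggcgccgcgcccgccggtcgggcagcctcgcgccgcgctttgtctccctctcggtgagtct
Counted back from the start, B2m held an ISRE at -139 to -130 and an inverted CCAAT box at -54 to -49, and H2-Aa an inverted CCAAT box at -49 to -44. Igtp held a GAS at -45 to -37 next to an ISRE at -34 to -25, and Socs3 a GAS at -154 to -146. Over all 27025 genes with such a window, 8.13% held a GAS, 3.46% an ISRE and 16.6% an inverted CCAAT box in any window. Of genes with a window, the box was present in 8 of 10 class I, 4 of 5 class II, 3 of 12 receptor, JAK and feedback, 4 of 18 immediate early and 6 of 20 structural myelin genes. An ISRE was present in 5 of 6 immunity-related GTPase, 4 of 4 guanylate-binding protein, 10 of 23 antiviral, 3 of 10 class I, 0 of 5 class II and 1 of 12 receptor, JAK and feedback genes. A GAS was present in 4 of 6 immunity-related GTPase, 2 of 4 guanylate-binding protein, 6 of 23 antiviral, 1 of 10 class I, 0 of 5 class II and 1 of 18 immediate early genes, and Socs3 was the 1 of 12 receptor, JAK and feedback genes that held one. These matches describe letters and do not show binding.

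The GTPase families were mixed. Of 7 tested immunity-related GTPases 0 were called by edgeR and 0 by DESeq2 at 48 h against 8 h. Over all genes edgeR called 26.4% higher and 26.8% lower. Of the 7, 1 had an unadjusted edgeR p below 0.05. With the 10 libraries of the contrast alone 4 were higher and 1 lower. Without the untreated library that held Gbp2, a choice made after seeing the data, 2 were higher. Igtp had 1877, 1950, 2027, 2030 and 2032 CPM at 8 h, 1555, 1602, 1710, 1726 and 1749 CPM at 24 h and 1522, 1554, 1565, 1631 and 1678 CPM at 48 h. The 48 h libraries all lay below the 8 h libraries; the log2 fold was -0.32 ± 0.36 (edgeR adjusted p = 0.487), and -0.31 (edgeR adjusted p = 0.000179) when only the compared libraries were fitted. Gbp2, a guanylate-binding protein, was at 7553 ± 465 CPM at 48 h and 7298 ± 283 CPM at 8 h (SD, n = 5 each), with overlapping libraries. Its log2 fold was 0.05 ± 0.6 (edgeR adjusted p = 0.949). In the main fit, SE and p for Igtp and Gbp2 rest on spread over all 50 libraries, untreated ones included, and not on the compared groups alone. Of 10 tested guanylate-binding protein genes 5 rose, against 26.4% of all genes. Gbp8 had 14.9, 15.4, 16.5, 16.9 and 19.8 CPM at 8 h, 59.8, 64.5, 66.2, 71.6 and 77.4 CPM at 24 h and 96.4, 108, 110, 116 and 116 CPM at 48 h. Its times did not overlap (log2 fold 2.71 ± 0.093, edgeR adjusted p = 1.54e-18). DESeq2 called 1 of the 10 higher.

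Antiviral genes usually tied to type I interferon rose: 17 of 29 tested were higher at 48 h and 2 lower, Ifit2 and Samhd1. Over all genes 26.4% were higher and 26.8% lower, and the median log2 fold of the 29 was 0.65. Usp18, an ISG15 protease that damps type I interferon signalling, had 33.6, 34.9, 35.6, 37.2 and 40 CPM at 8 h, 45.2, 55.4, 57.7, 59.9 and 60 CPM at 24 h and 77.6, 79, 87.1, 87.7 and 94.7 CPM at 48 h. No times overlapped, and its log2 fold was 1.23 ± 0.12 (edgeR adjusted p = 3.59e-12). Bst2, which tethers virus particles, rose by 1.34 ± 0.13, Ifi27 by 1.54 ± 0.077 and Irf7, a factor of the interferon loop, by 1.33 ± 0.15. Irf1 was lower, with a log2 fold of -0.24 ± 0.069 (edgeR adjusted p = 0.00291). Irf1 was also called lower untreated, and its log2 change was called higher with IFN-γ than untreated. Samhd1, a nucleotide hydrolase, fell, with a log2 fold of -0.73 ± 0.097 (edgeR adjusted p = 1.02e-08). Samhd1 also fell untreated, and the difference between its changes was not called.

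**Figure D5:**
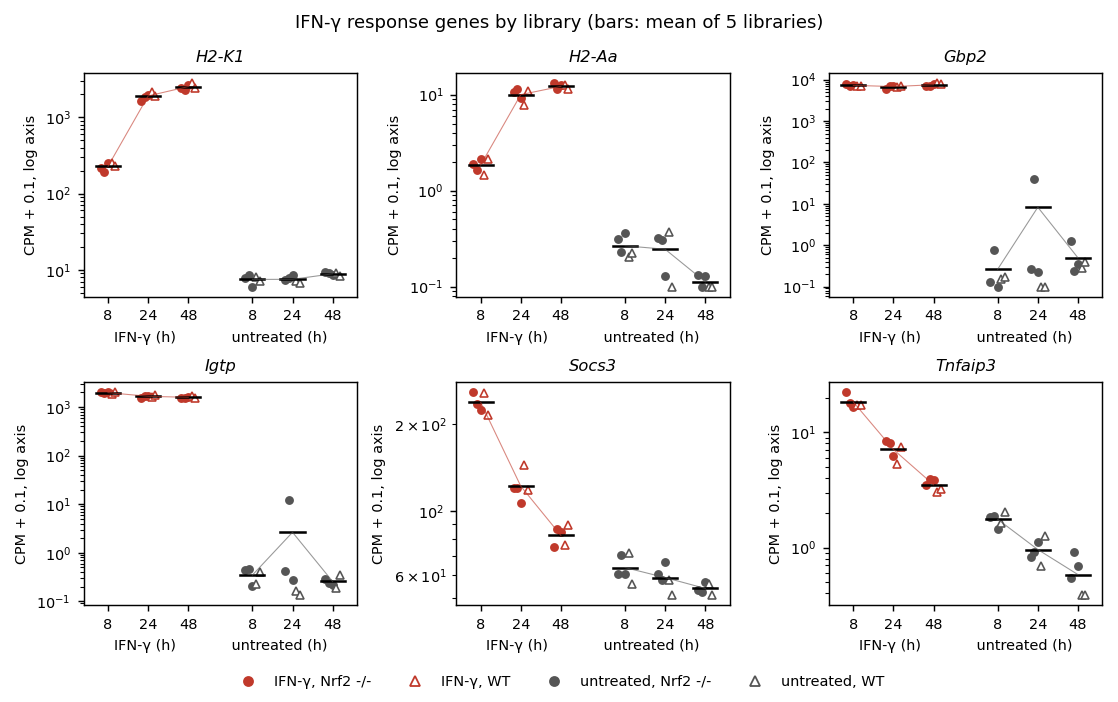
CPM plus 0.1 on a log axis for 6 IFN-γ response genes, 1 symbol per library, IFN-γ (red) left of untreated (grey), circles for Nrf2 -/- and triangles for WT, bars at the mean of 5 libraries joined by thin lines. H2-K1 and H2-Aa were higher at 24 and 48 h than at 8 h, Gbp2 and Igtp had IFN-γ means of 6828 to 7553 and 1590 to 1983 CPM, and Socs3 and Tnfaip3 were lower at each later time; 1 untreated Nrf2 -/- library at 24 h stands out for Gbp2 and Igtp.

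The 4 listed inhibitors of the SOCS family fell, and other genes of the receptor and its regulators were split. Over all genes 26.8% fell and 26.4% rose. Of 15 genes for the receptor, JAKs and feedback regulators, 6 fell, 2 rose and 7 were not called. Their median log2 fold was -0.09. Those that fell were Cish, Socs1, Socs2 and Socs3, the receptor chain Ifngr2 and the kinase Jak2; those that rose were Ptpn11, a phosphatase, and Usp18. Untreated, 3 fell (Cish, Jak2 and Ptpn2) and 3 rose (Jak1, Ptpn1 and Ptpn11), against 32.0% of all genes in each direction. Socs3, an inhibitor of cytokine receptor signalling, had 215, 223, 234, 256 and 257 CPM at 8 h, 106, 118, 120, 120 and 144 CPM at 24 h and 75.1, 76, 84.2, 86.5 and 89 CPM at 48 h. Each time lay wholly below the one before, and the log2 fold was -1.53 ± 0.16 (edgeR adjusted p = 9.18e-11). With IFN-γ over untreated the log2 difference was 1.90 ± 0.16 at 8 h and 0.61 ± 0.16 at 48 h. Socs1, the main brake on JAK signalling by IFN-γ, had 37.4, 42.9, 43.4, 71.1 and 78.4 CPM at 8 h, 33.8, 35.3, 39.2, 39.3 and 87.3 CPM at 24 h and 19, 24.9, 25, 25.1 and 27.3 CPM at 48 h. The 48 h libraries were all lower than the earlier ones, which were spread widely, and the log2 fold was -1.15 ± 0.22 (edgeR adjusted p = 1.79e-05). Socs2 had a log2 fold of -1.06 ± 0.11, with the drop before 24 h, and Jak2 one of -0.59 ± 0.039. All 3 SOCS genes stayed above untreated at 48 h, Socs1 at 24.3 CPM with IFN-γ and 0.233 CPM untreated.

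Many genes of NF-κB and of the immediate early class were lower at 48 h. Of 13 tested NF-κB genes, 8 fell and 2 rose (26.8% and 26.4% of all genes), with a median log2 fold of -0.31. Untreated, 6 fell and 2 rose (32.0% of all genes in each direction), with a median of -0.50. The log2 change was lower with IFN-γ than untreated for 4 and higher for 3 (19.9% and 20.8% of all genes). Tnfaip3, which encodes the A20 inhibitor of NF-κB, had 16.6, 17.2, 17.3, 17.7 and 22.2 CPM at 8 h, 5.23, 6.09, 7.29, 8.05 and 8.29 CPM at 24 h and 2.94, 3.09, 3.4, 3.76 and 3.85 CPM at 48 h, with no overlap between times (log2 fold -2.42 ± 0.13, edgeR adjusted p = 1.62e-21). Of 23 tested immediate early genes, which in other settings follow within minutes of a stimulus, 14 fell and 2 rose (Arc and Klf6). Over all genes 26.8% fell and 26.4% rose, and the median log2 fold of the 23 was -0.67. Untreated, 12 rose and 4 fell (32.0% of all genes in each direction). The log2 change was lower with IFN-γ than untreated for 16 and higher for 1 (19.9% and 20.8% of all genes). Egr2, a zinc-finger factor, had 25, 25.5, 27.4, 28.4 and 30.8 CPM at 8 h, 10.6, 11.1, 11.6, 11.7 and 12.5 CPM at 24 h and 3.96, 5.15, 5.77, 5.88 and 6.38 CPM at 48 h, against untreated means of 0.509, 0.976 and 2.72 CPM. The IFN-γ times did not overlap and ran downwards while the untreated means ran upwards, and the changes differed by -4.73 ± 0.27 (edgeR adjusted p = 3.2e-19). Jun had a log2 fold of -0.67 ± 0.10 with IFN-γ and of 1.74 ± 0.11 untreated, yet at 48 h was still higher with IFN-γ, at 334 ± 24.1 CPM against 113 ± 8.26 CPM (SD, n = 5 each). Fos fell, with a log2 fold of -1.46 ± 0.082, and at 48 h was lower with IFN-γ, at 34.4 ± 4.62 CPM against 57 ± 0.868 CPM. Arc, a synaptic immediate early gene, rose by 3.62 ± 0.23 with IFN-γ and by 6.76 ± 0.23 untreated.

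Genes of protein folding, protein synthesis and cell death were followed too. Of 25 genes for chaperones of the endoplasmic reticulum, 7 rose and 10 fell with IFN-γ (26.4% and 26.8% of all genes). Untreated, 5 rose and 16 fell (32.0% of all genes in each direction). The log2 change was higher with IFN-γ for 16 (20.8% of all genes). Hspa5, the chaperone BiP, had 486, 493, 518, 527 and 551 CPM at 48 h and 667, 683, 684, 720 and 728 CPM at 8 h of IFN-γ, without overlap. Its log2 fold was -0.43 ± 0.053 with IFN-γ and -1.30 ± 0.054 untreated (difference 0.86 ± 0.075, edgeR adjusted p = 1.23e-13). All 35 cytosolic ribosomal protein genes fell with IFN-γ (26.8% of all genes), with a median log2 fold of -0.40. Untreated, all 35 fell too (32.0% of all genes), with a median of -0.85. The log2 change was higher with IFN-γ for 31 (20.8% of all genes). Of 32 tested caspase and cell death genes, 7 rose and 8 fell with IFN-γ, near the shares of all genes (26.4% and 26.8%), and 18 rose and 11 fell untreated (32.0% of all genes in each direction). Bbc3 and Phlda3, both known p53 targets, rose by 0.87 ± 0.10 and 0.93 ± 0.097 with IFN-γ and stood at 20.7 ± 1.9 and 54 ± 5.15 CPM at 48 h, against 50.2 ± 4.1 and 111 ± 8.15 CPM untreated (SD, n = 5 each). Of 25 tested NRF2 target genes, 12 rose and 4 fell with IFN-γ (26.4% and 26.8% of all genes). Untreated, 14 rose and 10 fell (32.0% of all genes in each direction).

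Markers of other cell types were followed beside these lists. Of 17 tested astrocyte markers, 9 rose and 5 fell with IFN-γ (26.4% and 26.8% of all genes). Untreated, 11 rose and 2 fell (32.0% of all genes in each direction). The 5 that fell with IFN-γ were Aldoc, Atp1b2, Ppp1r3c, Slc1a3 and Sox9. Summed levels of the 17 were 633 to 803 CPM at 48 h and 537 to 596 CPM at 8 h of IFN-γ. Among the 9 that rose, Gfap, which defines astrocytes, had 6.28, 11.1, 14, 17.2 and 17.7 CPM at 48 h and 2.67, 3.32, 5.8, 8 and 9.12 CPM at 8 h, with overlap. Aqp4, their water channel, had 4.39, 4.47, 8.04, 8.23 and 10.1 CPM at 48 h and 0.388, 1.03, 1.09, 1.7 and 2.07 CPM at 8 h, without overlap. Neuron markers were called lower for 9 of 14 tested and higher for 1 (26.8% and 26.4% of all genes). Their sums were 1874 to 2052 CPM at 48 h and 2010 to 2177 CPM at 8 h. Of 7 tested endothelial, mural and fibroblast markers 2 were lower, near the 26.8% of all genes. These summed to 8.26 to 10.2 CPM at 48 h and 9.33 to 11.3 CPM at 8 h over the 7. The part of such cells in the changes above was not tested.

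Among the largest rises by the naming rule were those of Tmem125 (log2 fold 6.67), Il12rb1 (5.72), Mobp, Plekhg1 (5.45), Lpar1 (5.28), Sgk2 (5.18), H2-Q6 (4.84), Tppp and Plch2 (4.76). Il12rb1, a receptor chain for interleukin 12 and 23, had 0.437, 0.445, 0.468, 0.564 and 1.18 CPM at 8 h, 1.61, 1.71, 2.29, 2.38 and 2.97 CPM at 24 h and 27.1, 28.3, 28.7, 31 and 42.2 CPM at 48 h, with all 48 h libraries above the rest. Lpar1, a lysophosphatidic acid receptor of oligodendrocytes, had 57.9, 66.1, 67, 77.9 and 93.9 CPM at 48 h and 1.33, 1.7, 2.04, 2.12 and 2.17 CPM at 8 h. The largest falls were those of Pcsk1 (-3.11), a prohormone convertase, Ptgfrn (-2.45), Tnfaip3, Akap12 (-2.38), Egr2, Nr4a3 (-2.24), Myo5b (-2.20), Gabrg3 (-2.19), Cacng5 (-2.18) and Edil3 (-2.15). Pcsk1 had 13.4, 13.4, 13.5, 14.6 and 16.3 CPM at 8 h, 2.7, 2.91, 3, 3.25 and 3.67 CPM at 24 h and 1.33, 1.36, 1.5, 1.93 and 2.09 CPM at 48 h, and its times did not overlap.

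Where the IFN-γ and untreated changes parted most, Bmp4, Neu4, H2-M3 (log2 difference 4.25), Plekhf1 (4.15), H2-Eb1 (3.94), Gabbr2 (3.45), H2-Q7 (3.41) and H2-Ab1 (3.34) had the largest positive values. H2-M3, H2-Eb1 and H2-Ab1 were also called lower untreated from 8 to 48 h. All 8 tested class II genes together held 10.05 to 12.73 CPM untreated at 48 h, so the untreated changes of H2-Eb1 and H2-Ab1 rest on low counts. The largest negative values were those of Car2 (-7.22), Prr5l (-5.99), Maf (-5.42), Scg2 (-4.77), Egr2, Phlda1 (-4.41), Adamts15 (-4.40) and Adamts1 (-4.08). Car2, the carbonic anhydrase of oligodendrocytes, had 11.7, 12.1, 12.1, 14.6 and 16 CPM at 8 h, 5.49, 6.86, 7.83, 8.33 and 9.13 CPM at 24 h and 5.86, 6.28, 7.41, 8.31 and 9.18 CPM at 48 h of IFN-γ. It fell early and then held, whereas untreated means were 0.382, 0.648 and 32.1 CPM at the same times. At the midpoint, H2-Q6 (1.52), Ube2c, H2-Q7 (1.38), H2-K1 (1.33) and Dlgap5 (1.25) stood furthest above the mean of 8 and 48 h. Atp8b1 (-2.12), Nod1 (-1.65), Dgat2 (-1.45), Frmd4b (-1.37) and Kcna1 (-1.33) stood furthest below it. Nod1, a sensor of bacterial peptidoglycan, had 7.77, 8.45, 8.51, 8.73 and 11.4 CPM at 8 h, 4.52, 5.48, 5.81, 6.63 and 6.98 CPM at 24 h and 32.7, 33.5, 36.3, 38.1 and 47.6 CPM at 48 h, so that the midpoint libraries were the lowest.

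The change from 8 to 48 h was compared between genotypes in a model with 1 mean per group. No gene was called by edgeR (0.00% of 16460), where 1110 had an unadjusted p below 0.05 and the lowest adjusted p was 0.0947, for Efs, an adaptor protein, with a log2 difference of 0.614 (Nrf2 -/- minus WT); DESeq2 called 3. Without WT 48 h replicate 2 the count was 822, with a single WT library left at 48 h, so the count of 0 rests on that library. With 3 Nrf2 -/- and 2 WT libraries per time, a missed threshold does not show that the genotypes changed alike.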

How the data were processed

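RNA-sequencing libraries of mouse oligodendrocyte-lineage cultures were analysed. The authors deposited raw counts per gene and, in a second table, estimated counts per isoform; per the submitters' processing notes, STAR, featureCounts, kallisto and edgeR were used. Their settings and versions, and the build, were not given in the sources used here. Of 39056 gene entries, 38872 were matched to names in GENCODE M21. Counts were tested with edgeR 4.0.16 (R 4.3.3): filterByExpr (minimum count 10, minimum total 15, smallest group 2) left 16460 genes, TMM factors ran from 0.864 to 1.119, and the quasi-likelihood fit held treatment by time, with genotype as a covariate, over all 50 libraries. DESeq2 1.42.0 and isoform estimated counts, summed per gene and rounded, were alternatives, with other scalings, no filter, the compared libraries alone, other genotype codings, an Xist term and each library left out. Log2 folds are of TMM-scaled counts. In simulated data for IFN-γ 48 h against 8 h (15858 genes), 67, 67 and 66 genes were changed by log2 0.5, 1 and 2. Of these, 94%, 98.5% and 100% were called, as were 0.0383% of unchanged genes. Changed genes were drawn from those averaging at least 10 CPM, so the shares do not cover changes in genes below that level. Far fewer genes changed than were called in the real contrast.

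Members and lists were chosen with earlier results of these data known. Named beside list members were the 10 highest and 10 lowest folds at 48 h against 8 h, the 8 and 8 for the difference from the untreated change and the 5 and 5 for the midpoint, among called genes with at least 10 CPM in 1 group, over 3 counts in each group, no Gm or Rik symbol and, for the first, no overlap of libraries. Some genes that the rule names, or that the lists hold, are not reported here. Genotype labels conflicted for 3 libraries, which were grouped by title. Each count carries counting error and library spread. Promoters came from RefSeq tables of GRCm38.p6.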

Additional observations from a re-analysis of the deposited data

Results flagged for a closer look

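In each group of 5 libraries, a value was singled out when its gap to the nearest library exceeded Dixon's 95% critical value. Chance flags about 1 in 20 groups, 290 groups were examined and 20 values were singled out. No cause was tested.

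WT IFN-γ 24 h replicate 1 was high for Socs1 (87.3 CPM, the other 4 libraries 33.8 to 39.3), Sox10 (876 CPM, others 625 to 679), Bbc3 (20.7 CPM, others 13.4 to 14.9) and Phlda3 (48.9 CPM, others 35.4 to 38). WT IFN-γ 48 h replicate 1 was low for Akap12 (44 CPM, others 65.4 to 68.9) and Socs1 (19 CPM, others 24.9 to 27.3). WT IFN-γ 48 h replicate 2 was high for Il12rb1 (42.2 CPM, others 27.1 to 31) and low for Neu4 (45.5 CPM, others 52.6 to 55.5). WT IFN-γ 8 h replicate 1 was high for Il12rb1 (1.18 CPM, others 0.437 to 0.564) and Plch2 (1.18 CPM, others 0.392 to 0.572).

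Nrf2 -/- IFN-γ 8 h replicate 1 was low for Akap12 (282 CPM, others 324 to 338) and high for Nod1 (11.4 CPM, others 7.77 to 8.73) and Tnfaip3 (22.2 CPM, others 16.6 to 17.7). Nrf2 -/- IFN-γ 8 h replicate 2 was high for Gabrg3 (23.9 CPM, others 19.9 to 20.4). Nrf2 -/- IFN-γ 24 h replicate 1, the deepest library, was low for B2m (1619 CPM, others 1920 to 2016) and high for Kcna1 (7.54 CPM, others 5.21 to 5.86) and Samhd1 (71.9 CPM, others 60.5 to 63.3). Nrf2 -/- IFN-γ 48 h replicate 2 was high for Dlgap5 (29.2 CPM, others 21.3 to 23.1). Untreated Nrf2 -/- 24 h replicate 2 held Gbp2 at 40.6 CPM (others 0 to 0.159) and Igtp at 12.1 CPM (others 0.0329 to 0.319).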

How the results depend on the processing

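The counts of called genes in the 9 comparisons other than the genotype difference stayed within 1.5 times their main value under every alternative run; for IFN-γ 48 h against 8 h, 8748 in all, the range was 7833 to 8886 under other settings and 8189 to 8723 with 1 library left out. For the genotype difference, where the main count was 0, DESeq2 called 3, and no filter on low counts, upper-quartile scaling and an Xist term called 1 each, all higher. Leaving out 1 library gave 0 to 822 calls, of which 0 to 717 were higher, 0 to 105 lower, and 0 to 103 and 0 to 9 higher and lower by 2-fold; the highest values came without WT IFN-γ 48 h replicate 2, and the lone WT library there is assumed to vary like the other groups. For the 24 h midpoint, kallisto sums gave 1921 higher and 1513 lower, 55.9% higher, against 42.5% in the main fit. Of 3047 alternatives over 126 results for named genes, 3029 kept direction and side of the threshold, 16 lost the call and 2 gained it; of 3996 alternatives for counts of list members, 98 moved by over 1.5 times. Besides those given above, Opalin had an adjusted p of 0.0591 with no filter and 0.0966 with the compared libraries alone, Bcas1 0.0767 and 0.0942, and Gpr17 0.168 with the compared libraries alone. The cause was not tested. No paired analysis was possible because the replicate numbers were given in accession order and do not pair libraries. Depth limits the genes that did not pass the count filter, which were not tested.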
